A study of Mus musculus with 15 samples.

Results

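The question addressed here was whether treatment with an antibody against PD-1 changed gene expression differently in UV2 tumors than in parental tumors. For each gene the difference was the UV2 response (anti-PD-1 minus isotype) minus the parental response (anti-PD-1 minus isotype), on the log2(TPM + 1) scale. A negative difference therefore means a lower response in UV2. The comparison used every library of 4 groups, 12 of the 15 libraries in the series, and all 13592 genes that passed the filter on low values. The groups were parental isotype, parental anti-PD-1, UV2 isotype and UV2 anti-PD-1, with 3 bulk RNA libraries each.

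All tumors were grafts in female C57BL/6 mice aged 8 weeks, inoculated with 1000000 melanoma cells per flank. The parental tumors came from the line D4M.3A.3 and the UV2 tumors from D3UV2, a line that carries putative neoantigens induced by UVB. Antibody doses fell on days 8, 10 and 12 and the grafts were collected on day 13. The isotype groups received a control antibody on the same days, and the remaining 3 libraries, parental triple therapy, entered only the estimate of the spread. The labels do not say whether each line is a single clone, nor that each library is from its own animal. The p-values therefore measure only the spread between these samples, which may be technical.

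PD-1 is a receptor on activated T cells that dampens their signalling, and blocking it can release T cells that then secrete interferon gamma and act on tumor cells. Sterol synthesis is the chain of enzymes that builds cholesterol from acetyl-CoA through mevalonate, squalene and lanosterol. Its genes share a regulator, the transcription factor SREBP2 (gene Srebf2), which is held in the endoplasmic reticulum by INSIG proteins when sterols are plentiful and is released to the nucleus when they are scarce.

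The values were relative transcript abundances (TPM), scaled per transcript length so that each library sums to 1000000. They are relative to all RNA of a tumor, and the read depth behind them is unknown. In bulk tumor RNA, fewer cells of a type and less RNA per cell cannot be told apart. Of the melanocyte markers, Sox10 and Pmel were low in all 12 libraries. Sox10, a transcription factor of the melanocyte lineage, lay between 0 and 0.25 TPM and Pmel, a pigment cell protein, between 0 and 0.79 TPM. The other markers were higher: Tyr lay between 1.49 and 4.57 TPM and Mitf, the regulator of that lineage, between 5.28 and 11.8 TPM. Libraries within groups differed in tissue markers. The summed TPM of 3 keratinocyte markers was 234 in UV2 anti-PD-1 replicate 3 and at most 3.60 in the other 11 libraries. The summed TPM of 4 skeletal muscle markers was at least 171 in parental isotype replicate 3, all 3 parental anti-PD-1 libraries, UV2 isotype replicate 3 and UV2 anti-PD-1 replicates 2 and 3. It was at most 8.84 in the other 5 libraries. UV2 isotype replicate 1 had a summed T cell marker level of 28.6 TPM, against 151 and 139 TPM in replicates 2 and 3. The part of these tissue differences in the results was not tested.

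No gene passed the test of the difference. Of 13592 genes, 0 (0%) were called in limma at a Benjamini-Hochberg adjusted p under 0.05. The lowest adjusted p of any gene was 0.80. At an unadjusted p under 0.05, there were 404 genes, 313 with a lower response in UV2 (2.30% of all tested) and 91 with a higher response (0.670%). The median difference over all genes was -0.16, with 8851 genes below 0 and 4740 above. This excess of lower values depended on the scaling. With median-of-ratios scaling the median of all genes moved to 0.03 and the split became 222 lower against 232 higher. With quantile normalization it was 257 lower against 202 higher. The count of 313 also moved with single libraries: it was 1914 without UV2 isotype replicate 2 and 648 without either parental isotype replicate 2 or UV2 anti-PD-1 replicate 1. It was 121 with UV2 isotype replicate 1 removed, 135 with parental isotype replicate 3 removed and 156 with parental anti-PD-1 replicate 3 removed. Without UV2 anti-PD-1 replicates 2 and 3 in turn it was 197 and 180.

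The 2 responses that make up the difference share no library. In UV2, 2 genes (0.0147%) were called, both lower after anti-PD-1: Sqle and Idi1, each with an adjusted p of 0.0336 in limma. Over the alternatives the adjusted p of Sqle and of Idi1 each ranged from 0.00164 to 0.265. Neither was called with quantile normalization or a muscle covariate, or without any 1 of the parental anti-PD-1 libraries, parental isotype replicates 1 and 2, UV2 isotype replicates 1 and 2, or the UV2 anti-PD-1 libraries. Without parental isotype replicate 3, Hmgcs1 and Cyp51 were called as well, and without UV2 isotype replicate 3, Sqle was not (adjusted p 0.0679). With median-of-ratios scaling Idi1 was not (adjusted p 0.141). At an unadjusted p under 0.05, 868 genes were lower (6.39%) and 377 higher (2.77%). In parental tumors 0 genes (0%) were called, with a smallest adjusted p of 1, and at an unadjusted p under 0.05 the counts were 30 lower (0.221%) and 53 higher (0.390%). Across genes, which are not independent replicates, the 2 responses had a Pearson correlation of -0.0311 and a Spearman correlation of -0.0856.

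**Figure D1:**
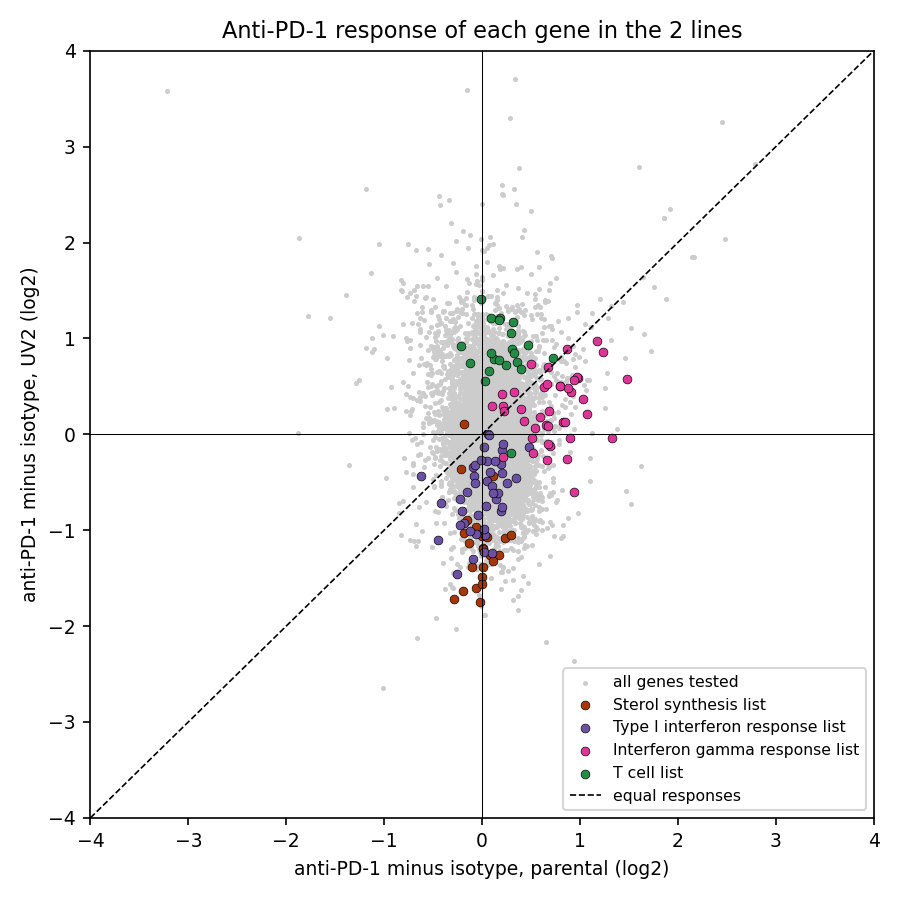
Anti-PD-1 response in parental tumors (horizontal axis) against UV2 tumors (vertical axis) for each gene tested, both as log2 differences of mean log2(TPM + 1), 3 libraries per group. The sterol synthesis genes lie near 0 on the parental axis (list median -0.00) and below 0 on the UV2 axis (list median -1.20), while all genes together have medians of 0.07 and -0.11.

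Genes of sterol synthesis had the most negative median of the 39 lists examined. The sterol list was among the 36 chosen with earlier results of these data known. Among those 36 it stayed lowest under the alternatives, except without parental isotype replicate 3. There skeletal muscle was lower (-1.15 against -1.03). Of the 24 members of the sterol list, all of which passed the filter, 23 had a negative difference (65.1% of all genes did). At an unadjusted p under 0.05 there were 18, all lower in UV2 (2.30% of all genes). The list median was -1.29, against -0.16 over all genes, and the 1 positive member was Ebp, at 0.29. The UV2 response had a median of -1.20, with 20 of 24 members lower at an unadjusted p under 0.05, of which the 2 called were Sqle and Idi1. The parental response had a median of -0.00, with 12 members above 0, 12 below and 0 at an unadjusted p under 0.05. In UV2, 18 of 24 members had all 3 anti-PD-1 libraries below all 3 isotype libraries, where 7.28% of all genes did and 5.70% were separated the other way. In parental tumors 0 of 24 were separated, where 1.57% of all genes lay wholly below and 2.70% wholly above. With the median of all genes subtracted, the sterol median was -1.14 as scaled by the authors, -1.14 by median-of-ratios scaling and -1.11 by quantile normalization. No member passed the adjusted test of the difference under those scalings or with any library left out, and 18 did with library weights, whose estimation did not converge.

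The promoters of the 4 members with the smallest p for the difference among those with a RefSeq window are shown because 23 of the 24 members shared one sign. Of the 24 genes, 16 matched a window in the RefSeq table (build GRCm38.p6), with 19 windows in all. Each window runs 5′ to 3′ from 250 bases before to 50 bases after the annotated start. Capitals mark the sterol response element motif TCACNCCAC and the CCAAT box, searched on both strands, so that ATTGG is CCAAT on the other strand. The windows are chr13:119690101-119690400 on the plus strand for Hmgcs1, chr13:8885356-8885655 on the plus strand for Idi1, chr5:4104648-4104947 on the minus strand for Cyp51 and chr8:122443373-122443672 on the minus strand for Mvd.
Hmgcs1: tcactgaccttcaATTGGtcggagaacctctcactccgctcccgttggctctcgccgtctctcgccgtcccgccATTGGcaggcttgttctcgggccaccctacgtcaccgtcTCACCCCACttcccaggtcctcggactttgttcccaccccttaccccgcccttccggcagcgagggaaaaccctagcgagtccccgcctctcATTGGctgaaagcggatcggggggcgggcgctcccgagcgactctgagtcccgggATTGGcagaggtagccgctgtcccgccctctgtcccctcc
Idi1: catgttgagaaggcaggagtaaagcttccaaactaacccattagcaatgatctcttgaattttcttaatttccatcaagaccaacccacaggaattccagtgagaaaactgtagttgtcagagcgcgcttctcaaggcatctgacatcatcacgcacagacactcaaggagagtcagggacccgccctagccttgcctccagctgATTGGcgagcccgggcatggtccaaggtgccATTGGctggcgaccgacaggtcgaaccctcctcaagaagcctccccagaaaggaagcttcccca
Cyp51: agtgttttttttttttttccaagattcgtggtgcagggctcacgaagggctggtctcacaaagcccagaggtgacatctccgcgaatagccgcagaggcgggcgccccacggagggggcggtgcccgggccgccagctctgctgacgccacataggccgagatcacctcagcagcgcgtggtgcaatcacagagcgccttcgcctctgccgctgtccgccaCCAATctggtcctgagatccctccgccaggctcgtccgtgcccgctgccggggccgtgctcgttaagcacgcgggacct
Mvd: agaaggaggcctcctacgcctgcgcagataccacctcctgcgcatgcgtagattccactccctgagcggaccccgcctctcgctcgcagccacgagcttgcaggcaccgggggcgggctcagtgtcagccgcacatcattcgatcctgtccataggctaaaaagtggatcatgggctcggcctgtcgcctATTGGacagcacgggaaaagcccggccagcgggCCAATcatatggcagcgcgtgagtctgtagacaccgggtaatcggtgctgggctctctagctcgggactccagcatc
TCACNCCAC occurred in the Hmgcs1 window alone among the 19, and in 1.24% of all 32851 windows in the table. The looser TCACNNCAC, which every TCACNCCAC match also satisfies, occurred in 4 of the 19 (Hmgcs1, Sc4mol, Hsd17b7 and Dhcr7) and in 3.77% of all windows. CCAAT, the box bound by the factor NF-Y, occurred in 16 of the 19 windows, at least 1 for each of the 16 genes, and in 37.4% of all windows. Of the printed windows, Hmgcs1 held 4 CCAAT boxes, Idi1 and Mvd 2 each, and Cyp51 1. These matches describe letters in the windows. Fdps, Fdft1, Sqle and Stard4 were among the 8 genes with no window in the table.

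Among the enzymes from acetyl-CoA to the isoprenoids, Hmgcs1, which makes HMG-CoA, measured 133, 84.4 and 86.7 TPM in the UV2 isotype libraries and 32.6, 35.5 and 31.1 after anti-PD-1. In parental tumors it measured 139, 153 and 81.8 TPM under isotype and 112, 131 and 119 after anti-PD-1. The UV2 groups did not overlap and the parental groups did. The difference for Hmgcs1 was -1.56 ± 0.34 (SE), with an unadjusted p of 0.000471 in limma.

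Idi1 (chromosome 13, 8885501 to 8892451, plus strand, GRCm38) is the isomerase that supplies dimethylallyl diphosphate. It fell in UV2 from 79.5, 61.2 and 52.9 TPM under isotype to 17.1, 20.4 and 18.5 after anti-PD-1 (adjusted p 0.0336 in limma). Its parental values were 126, 109 and 83.0 TPM under isotype and 75, 105 and 79.6 after anti-PD-1, which overlapped. The difference was -1.44 ± 0.32 (SE), with a 95% interval of -2.13 to -0.74. Mvd, which decarboxylates diphosphomevalonate, measured 35.4, 29.6 and 20.8 TPM in UV2 isotype and 9.72, 15 and 10.9 in UV2 anti-PD-1, with a difference of -1.20 ± 0.34 (SE). Fdps, which makes farnesyl diphosphate, measured 373, 285 and 212 TPM in UV2 isotype and 70.5, 105 and 99.6 in UV2 anti-PD-1. All UV2 anti-PD-1 values lay below all isotype values for Idi1, Mvd and Fdps.

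Mvk, the mevalonate kinase, had a difference of -0.84. Pmvk, the next kinase of the pathway, had a difference of -0.15 with a 95% interval of -0.89 to 0.60. Its UV2 groups overlapped, at 57.2, 58.1 and 43.8 TPM against 34.1, 36.7 and 54.3, and its sign turned to 0.06 with median-of-ratios scaling and to 0.01 with quantile normalization.

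Sqle (chromosome 15, 59315077 to 59331192, plus strand, GRCm38), the squalene epoxidase and the first oxygen-using step, had the smallest p for the difference of all genes named here (unadjusted p 0.000221, adjusted p 0.80 in limma). It fell in UV2 from 81.2, 50.9 and 59.8 TPM under isotype to 21.0, 23.3 and 16.3 after anti-PD-1 (adjusted p 0.0336 in limma). The parental values were 105, 98.7 and 68.2 TPM under isotype and 81.5, 88.7 and 85.1 after anti-PD-1. The parental groups overlapped and all 6 parental values lay above the 3 UV2 anti-PD-1 values. The difference was -1.54 ± 0.30 (SE), with a 95% interval of -2.20 to -0.88, and it ranged from -1.69 to -1.35 as each library was left out.

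Of the other squalene and lanosterol enzymes, Cyp51, which demethylates lanosterol, measured 45.4, 40.6 and 35.3 TPM in UV2 isotype and 13.4, 17.9 and 13.4 in UV2 anti-PD-1. Its parental values were 82.4, 71.7 and 52.1 TPM under isotype and 58.6, 70.0 and 59.8 after anti-PD-1, and its difference was -1.28 ± 0.29 (SE). Fdft1, the squalene synthase, averaged 49.2 TPM in UV2 isotype and 20.8 in UV2 anti-PD-1, with a difference of -1.21. Lss, the lanosterol synthase, averaged 17.2 ± 6.80 TPM (SD, n = 3) in UV2 isotype and 5.18 ± 0.566 in UV2 anti-PD-1, with a difference of -1.49. Sc4mol, the older symbol of the methylsterol oxidase Msmo1, averaged 92.3 ± 11.6 and 41.7 ± 7.81 TPM, with a difference of -1.01. In each of these 4 genes the UV2 groups did not overlap and the parental groups did.

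Hsd17b7 and Sc5d, enzymes of steps after lanosterol, had differences of -1.43 and -1.06. Nsdhl, Tm7sf2 and Dhcr7 had differences of -0.90, -0.74 and -0.55 and did not reach an unadjusted p of 0.05. Ebp, the sterol isomerase, had a difference of 0.29 with a 95% interval of -0.11 to 0.68, and its UV2 libraries lay between 59.0 and 70.4 TPM in both groups.

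Regulators and transport genes of the list had differences of the same sign. Srebf2 measured 86.2, 47.7 and 82.9 TPM in UV2 isotype and 44.7, 33.7 and 24.3 in UV2 anti-PD-1, against 96.4, 103 and 54.3 and then 97.7, 101 and 102 TPM in parental tumors. Its UV2 groups were separate by a small margin and its parental groups overlapped, with a difference of -1.35 ± 0.41 (SE). Insig1, which retains SREBP in the endoplasmic reticulum and is itself a target of SREBP, averaged 67.4 ± 18.3 and 24.9 ± 4.31 TPM in UV2 (SD, n = 3), with a difference of -1.39. Stard4, a cholesterol carrier, had a difference of -1.34.

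**Figure D2:**
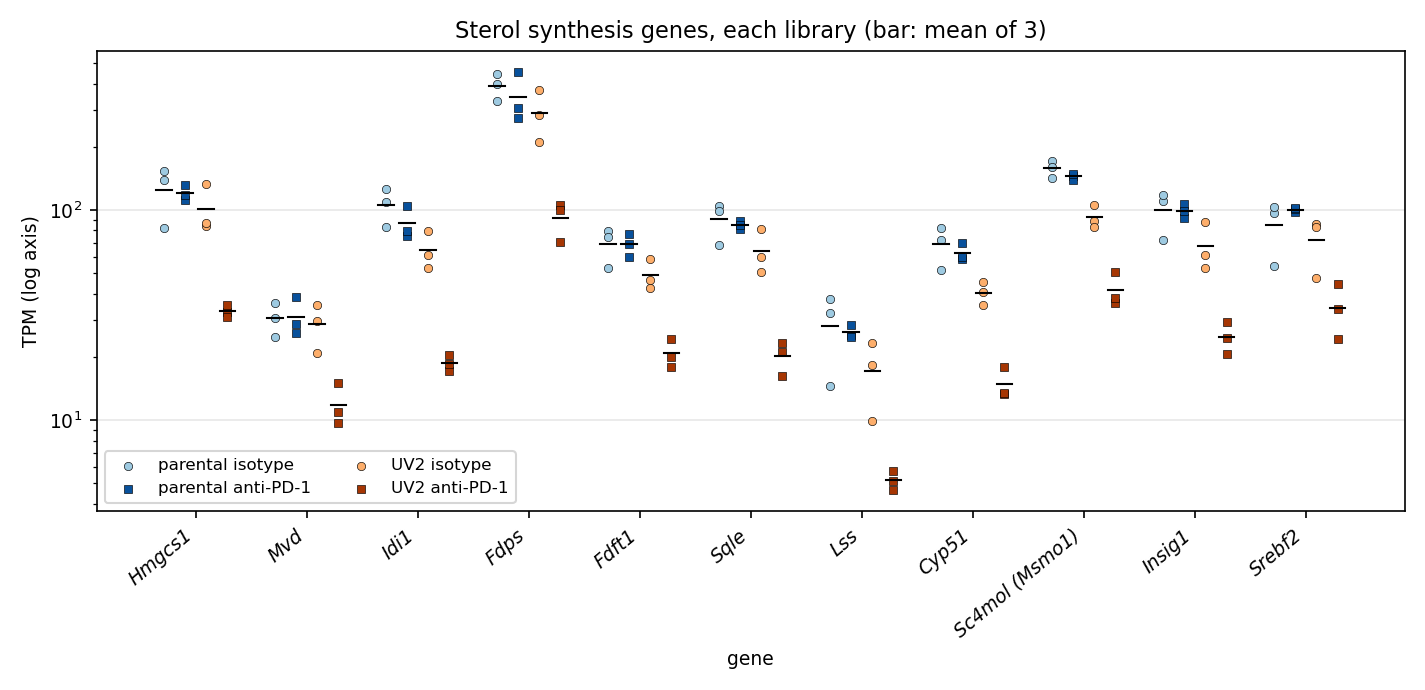
TPM (log axis) of 11 sterol synthesis genes in each of the 12 libraries, by group, with bars at group means. In UV2 the anti-PD-1 points of Sqle (16.3 to 23.3 TPM) and Idi1 (17.1 to 20.4 TPM) lie below all isotype points, whereas the parental groups overlap.

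**Figure D3:**
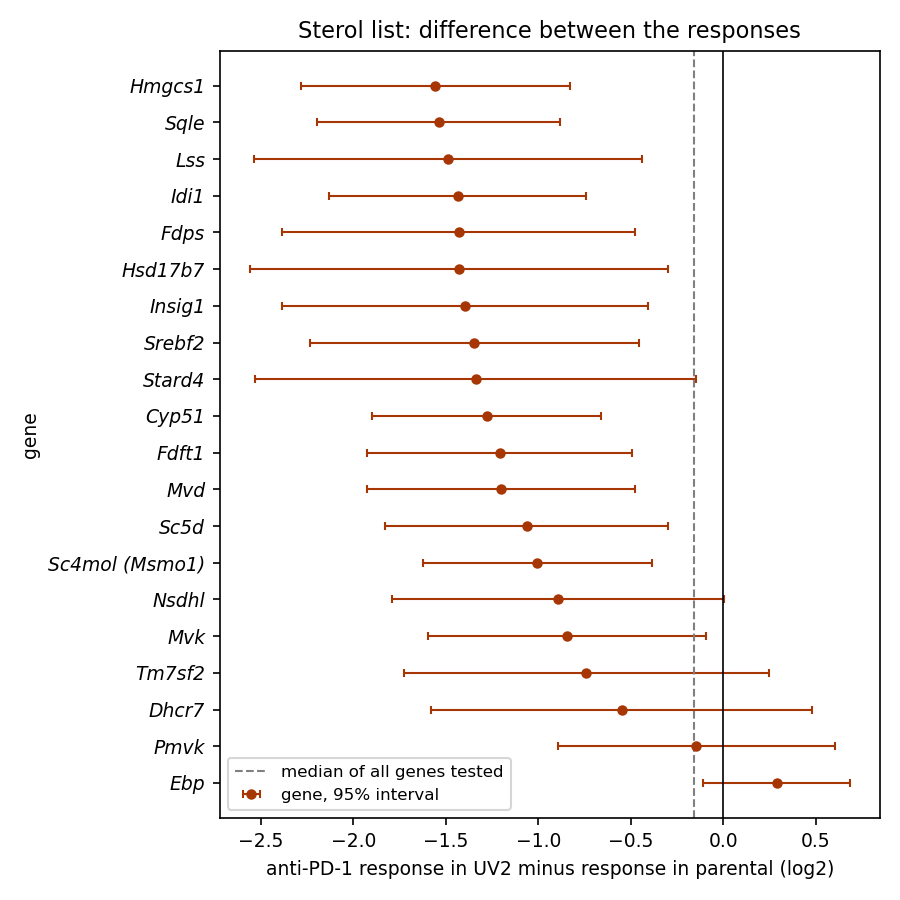
Difference between the UV2 and parental anti-PD-1 responses (log2, points) with its 95% interval (bars) for 20 of the 24 sterol synthesis genes. The points of 19 genes lie below 0, and Ebp lies above 0 at 0.29.

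The mean log2(TPM + 1) of the sterol list per library was 5.63, 5.0 and 5.27 in UV2 isotype and 4.18, 4.28 and 3.97 in UV2 anti-PD-1. In parental tumors it was 6.01, 5.99 and 5.37 under isotype and 5.68, 5.90 and 5.72 after anti-PD-1. The UV2 anti-PD-1 libraries were the lowest 3 of the 12. Means of other lists also differed between the UV2 groups. The adipocyte list mean was 1.91, 2.82 and 2.61 in UV2 isotype and 5.13, 3.81 and 3.27 in UV2 anti-PD-1, with no overlap. The macrophage and monocyte list mean was 6.71, 7.10 and 7.43 in UV2 isotype and 7.81, 7.62 and 7.46 in UV2 anti-PD-1, with no overlap. The vacuolar proton pump and cathepsin list mean was at most 7.76 in UV2 isotype and at least 7.84 after anti-PD-1, and the complement list mean 5.81, 6.25 and 6.60 and then 7.22, 7.02 and 6.65, also with no overlap. The T cell list mean was 2.82, 4.19 and 4.45 and then 4.96, 4.43 and 4.64, with groups that overlapped. The cell division list mean was also lower, from 5.92, 5.37 and 5.99 in UV2 isotype to 5.49, 5.30 and 5.02 in UV2 anti-PD-1, with groups that overlapped. The part of these lists in the sterol values was not tested. Leaving out parental isotype replicate 3, the parental isotype library with the lowest sterol mean, gave a list median of -1.03 with 15 members at an unadjusted p under 0.05. Leaving out UV2 isotype replicate 1, the library lowest in T cell markers among UV2, gave -1.11 with 14 members.

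**Figure D4:**
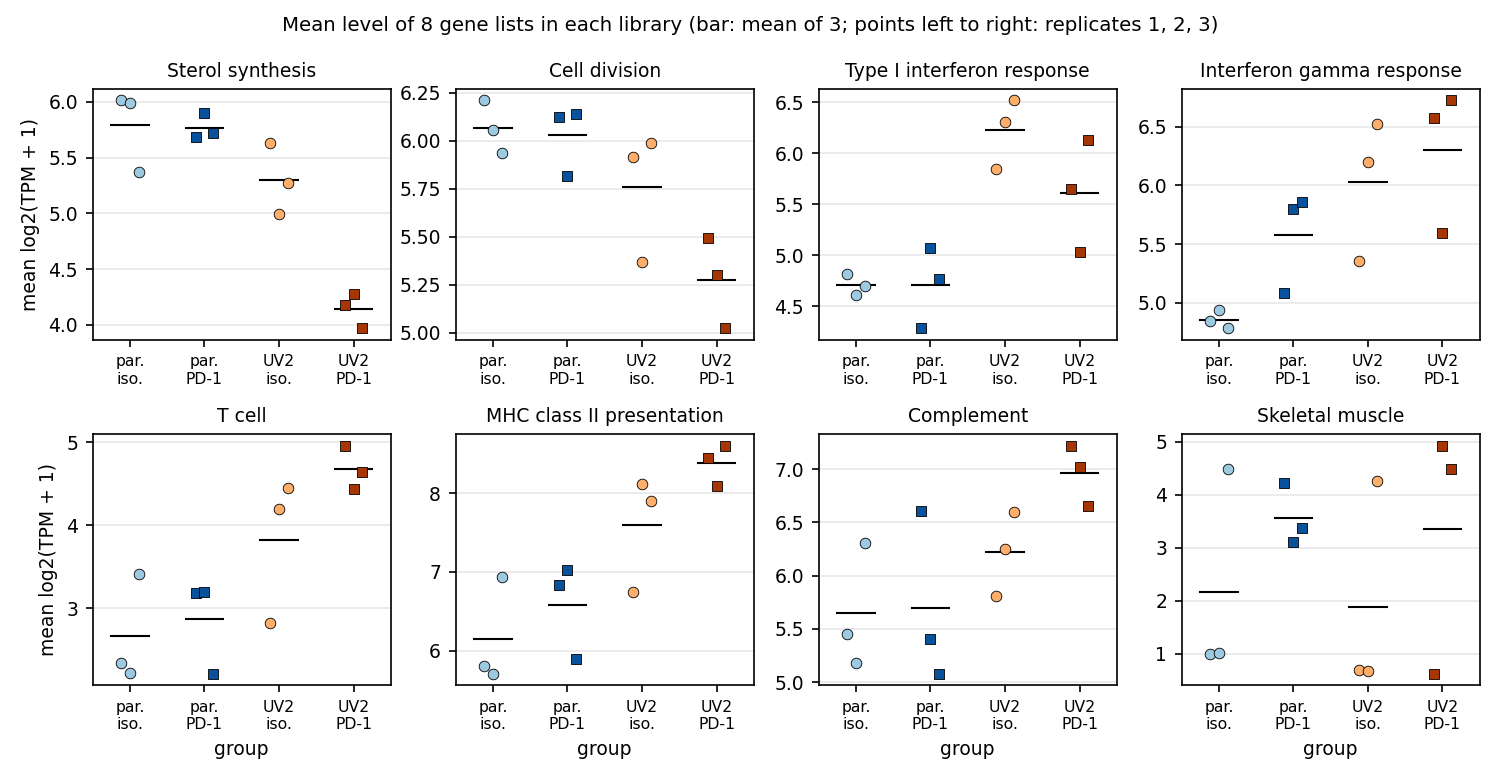
Mean log2(TPM + 1) of gene lists in each of the 12 libraries, by group. The sterol synthesis means of UV2 anti-PD-1 (3.97 to 4.28) lie below those of the other 9 libraries (5.0 to 6.01), while the T cell means of the UV2 groups overlap.

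Lists on neighbouring lipid pathways, chosen after the fit had been seen, were counted in the same way. For fatty acid synthesis and desaturation, 14 of 16 tested genes had a negative difference and 7 reached an unadjusted p under 0.05, all lower in UV2, with a median of -0.86. The shares over all genes were 65.1% and 2.30%. Scd2, a stearoyl-CoA desaturase, measured 449, 214 and 356 TPM in UV2 isotype and 164, 124 and 97.1 in UV2 anti-PD-1. The parental values were 518, 619 and 259 TPM under isotype and 461, 508 and 522 after anti-PD-1, so that the UV2 groups alone were separate. Its difference was -1.55 ± 0.52 (SE). Srebf1, which encodes the SREBP of fatty acid synthesis, had a difference of -1.07 ± 0.35 (SE). All 6 SREBP processing genes had a negative difference, with a median of -0.65, of which only Srebf2 and Srebf1 reached an unadjusted p under 0.05. Srebf2 is also counted in the sterol list and Srebf1 in the fatty acid list, so the SREBP processing list is not separate from them. Its median moved to -0.38 without parental isotype replicate 3.

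The list of sterol efflux and LXR genes held the nuclear receptor LXR, which senses oxysterols, some of its targets, and genes of lysosomal sterol release and esterification. Of these, 9 of 15 were above 0 (4740 of all 13592 genes were), the median was 0.18, and 0 reached an unadjusted p under 0.05. The median was 0.50 without UV2 isotype replicate 3. Apoe, the lipid carrier made by macrophages among other cells, measured 1805, 3270 and 3376 TPM in UV2 isotype and 8768, 9507 and 5094 in UV2 anti-PD-1. In parental tumors it measured 1828, 1389 and 2890 TPM, then 3554, 3351 and 1593. The parental groups overlapped and the UV2 groups did not, and the difference of 1.01 had a 95% interval of -0.39 to 2.42. Pltp, the phospholipid transfer protein, had a difference of 1.07 and an interval of -0.58 to 2.72.

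Interferon response genes lay lower in the UV2 response, without a call. For the type I interferon list, 42 of 43 tested genes had a negative difference, with a median of -0.61 and 3 at an unadjusted p under 0.05. Among all genes 65.1% were below 0 and 2.30% were lower at that p. The UV2 response had a median of -0.61, with 16 of 43 lower at an unadjusted p under 0.05 (6.39% of all genes) and 9 wholly below isotype (7.28% of all genes), and the parental response a median of 0.03. Leaving out UV2 anti-PD-1 replicate 2 moved the median of the difference to -0.31, and median-of-ratios scaling to -0.41. Ifit1, an RNA-binding antiviral protein, measured 135, 190 and 192 TPM in UV2 isotype and 72.0, 40.5 and 110 in UV2 anti-PD-1. The parental values were 58.4, 65.2 and 40.2 TPM under isotype and 22.8, 79.5 and 68.5 after anti-PD-1, and the difference was -1.21 with an interval of -2.61 to 0.19. Eif2ak2, the kinase PKR that senses double-stranded RNA, had a difference of -0.96 (unadjusted p 0.0235) and Cmpk2, an interferon-induced nucleotide kinase, -1.34 (unadjusted p 0.0402), both with an adjusted p of 0.80 in limma.

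In the interferon gamma list the responses of both lines were mostly positive, and the parental one was the larger. The parental response was above 0 in all 41 genes, with a median of 0.68 and 6 higher at an unadjusted p under 0.05 (0.390% of all genes). The UV2 response was above 0 in 31, with a median of 0.27 and 2 higher at an unadjusted p under 0.05 (2.77% of all genes). The difference had a median of -0.41, with 33 of 41 genes below 0 (65.1% of all genes) and 1 (Gbp9) lower at an unadjusted p under 0.05 (2.30%). The median moved to -0.78 without UV2 isotype replicate 1, to -0.09 without UV2 anti-PD-1 replicate 2 and to -0.20 with median-of-ratios scaling. The list mean in UV2 isotype was 5.36, 6.20 and 6.53, and in UV2 anti-PD-1 it was 6.58, 5.60 and 6.72, so that replicate 2 of the treated group was low. In parental tumors it was 4.84, 4.94 and 4.78 under isotype and 5.08, 5.80 and 5.85 after anti-PD-1, with no overlap.

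Gbp4, an interferon-induced GTPase, measured 15.9, 21.9 and 18.9 TPM in parental isotype and 29.1, 69.0 and 77.9 in parental anti-PD-1. In UV2 it measured 31.5, 85.1 and 128 TPM, then 151, 49.5 and 156. The parental groups were separate, the UV2 groups overlapped and the difference was -0.90 with an interval of -2.63 to 0.83. Irf1, a transcription factor induced by interferon gamma, measured 90.8, 100 and 110 TPM in parental isotype and 118, 179 and 178 after anti-PD-1. Its UV2 values were 158, 280 and 287 TPM, then 370, 239 and 402, and its difference of -0.14 turned to 0.07 with median-of-ratios scaling. Cd274, which encodes the PD-1 ligand PD-L1, had 22.1, 24.1 and 16.6 TPM in parental isotype and 36.3, 31.9 and 57.5 in parental anti-PD-1, against 15.7, 30.3 and 60.2 and then 68.3, 31.2 and 45.6 TPM in UV2. The difference for Cd274 was -0.37, with an interval of -1.64 to 0.90, and was 0.10 without UV2 isotype replicate 3. The chemokines Cxcl9 and Cxcl10, which attract T cells, had differences of -0.39 and -0.44. They turned to 0.06 and 0.09 without UV2 anti-PD-1 replicate 2.

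Genes of T cells had mostly positive differences, none of them called. In the T cell list 20 of 21 genes were above 0 (4740 of all 13592 genes were), with a median of 0.61. In that list 1 gene (Thy1, which fibroblasts also express) was higher at an unadjusted p under 0.05 (0.670% of all genes). The UV2 response had a median of 0.85 and the parental response 0.19. Leaving out UV2 isotype replicate 1 moved the median of the difference to 0.12. Cd3e, a chain of the T cell receptor complex, measured 6.72, 27.8 and 34.3 TPM in UV2 isotype and 66.5, 39.0 and 35.1 in UV2 anti-PD-1. Its parental values were 5.46, 5.51 and 14.9 TPM under isotype and 12.4, 14.4 and 3.77 after anti-PD-1. UV2 values were separate only by the gap from 34.3 to 35.1 TPM, and the difference was 1.02 with an interval of -0.76 to 2.81. It was 0.34 with UV2 isotype replicate 1 removed, 0.49 with parental anti-PD-1 replicate 3 removed and 0.59 with parental isotype replicate 3 removed.

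Pdcd1, which encodes PD-1 itself, measured 4.06, 29.0 and 31.0 TPM in UV2 isotype and 61.3, 35.7 and 34.4 in UV2 anti-PD-1, and 6.84, 4.05 and 12.6 and then 7.02, 15.6 and 4.58 TPM in parental tumors. Its difference was 1.20, with an interval of -0.78 to 3.17. Ifng, the interferon gamma gene, measured 3.32, 14.8 and 12.6 TPM in UV2 isotype and 29.5, 18.8 and 30.9 in UV2 anti-PD-1, without overlap. Its parental values were 2.32, 1.54 and 5.41 TPM under isotype and 3.42, 5.12 and 5.12 after anti-PD-1, and the difference was 0.92 with an interval of -0.64 to 2.48. Lag3, another inhibitory receptor of T cells, had a difference of 0.94 and Cd8a, which marks cytotoxic T cells, 0.85, with intervals of -0.62 to 2.49 and -1.12 to 2.82. Without UV2 isotype replicate 1 the differences were 0.33 for Pdcd1, 0.33 for Ifng, 0.23 for Lag3 and -0.00 for Cd8a. With parental isotype replicate 3 removed, Ifng and Lag3 were each 0.54. Cd4, Foxp3 of regulatory T cells, Prf1 (perforin) and Gzmb (granzyme B) had differences of 0.08, -0.01, 0.00 and 0.24, and the sign of each turned under at least 1 alternative. Quantile normalization gave 0.11 for Foxp3, and median-of-ratios scaling gave 0.16.

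Other lists of lymphocytes and myeloid cells had medians above 0. Among all 13592 genes the median was -0.16 and 4740 were above 0. The cytotoxic effector list had a median of 0.54 with 17 of 20 genes above 0, and the checkpoint and exhaustion list 0.52 with 17 of 20, with 0 genes at an unadjusted p under 0.05 in either. They moved to 0.10 without parental anti-PD-1 replicate 2 and to 0.13 without UV2 isotype replicate 1. NK cell, regulatory T cell, neutrophil and B and plasma cell genes had medians between 0.32 and 0.39. These 4 moved to -0.08 (NK, without UV2 isotype replicate 1), 0.01 (regulatory T, without UV2 anti-PD-1 replicate 1), and -0.03 and -0.20 (neutrophil and B cell, without parental isotype replicate 3). The macrophage and monocyte list had a median of 0.31, with 18 of 24 above 0, and was 0.17 without UV2 anti-PD-1 replicate 1. Its Ms4a7, a membrane protein of tissue macrophages, measured 160, 384 and 343 TPM in UV2 isotype and 501, 504 and 505 in UV2 anti-PD-1, and 214, 180 and 296 and then 240, 240 and 149 TPM in parental tumors. The difference for Ms4a7 was 1.00 (unadjusted p 0.0329, adjusted p 0.80 in limma).

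The MHC class II list had a median of 0.48, with 10 of 12 genes above 0 (4740 of all 13592 genes were), and 0.08 without UV2 isotype replicate 1. Cd74, the invariant chain, measured 1858, 8881 and 5977 TPM in UV2 isotype and 12232, 9997 and 12617 in UV2 anti-PD-1, and H2-Aa, a class II chain, 763, 3321 and 2690 and then 5113, 4408 and 5281 TPM. Both were separate in UV2 and overlapped in parental tumors, and both differences were 0.73, with intervals of -1.03 to 2.50 for Cd74 and -1.11 to 2.58 for H2-Aa. Without UV2 isotype replicate 1 they were 0.07 and 0.08, and without parental isotype replicate 3 they were 0.16 and 0.09. With parental anti-PD-1 replicate 3 removed they were 0.29 and 0.26, and with UV2 isotype replicate 2 removed 1.20 and 1.14. H2-Aa was 1.12 without parental isotype replicate 2. The MHC class I list had a median of -0.10, against -0.16 over all genes, and it turned to 0.10 with median-of-ratios scaling. B2m, the class I light chain, had a difference of 0.13 (-0.10 with quantile normalization), and Tap1, the peptide transporter, -0.13 (0.08 with median-of-ratios scaling).

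The cell division, MAPK pathway output and p53 target lists had negative medians. In the cell division list 32 of 34 genes were below 0 (65.1% of all genes), with a median of -0.50 (-0.29 with median-of-ratios scaling), and Mcm5 was lower at an unadjusted p under 0.05 (2.30% of all genes). Mcm5, a subunit of the replicative helicase, measured 84.8, 66.7 and 86.8 TPM in UV2 isotype and 60.1, 44.2 and 52.5 in UV2 anti-PD-1, and 75.3, 65.4 and 67.2 and then 65.9, 61.3 and 67.8 TPM in parental tumors. Its UV2 groups were separate and its difference was -0.51. In the MAPK pathway output list 14 of 16 genes were below 0, with a median of -0.68 and 0 at an unadjusted p under 0.05. Dusp6, the phosphatase that reports ERK activity, measured 141, 156 and 154 TPM in UV2 isotype and 128, 91.3 and 117 in UV2 anti-PD-1, with a difference of -0.67 and an interval of -1.36 to 0.03. The p53 target list had a median of -0.40, with 17 of 26 genes below 0, a share close to that of all genes (65.1%), and Phlda3, a p53-induced inhibitor of Akt, had a difference of -0.68. That median was -0.23 without UV2 isotype replicate 3 and -0.61 without UV2 isotype replicate 2.

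The dedifferentiated melanoma list had a median of -0.35 with 15 of 20 below 0. Over all genes the median was -0.16 and 65.1% were below 0. The list median was -0.09 without UV2 anti-PD-1 replicate 3 and -0.61 without UV2 isotype replicate 2. Of that list, Snai2, a transcription factor of the neural crest and of mesenchymal states, measured 46.0, 22.9 and 21.7 TPM in UV2 isotype and 14.3, 12.8 and 16.6 in UV2 anti-PD-1, with parental values between 13.4 and 15.3 TPM in all 6 libraries. Its difference was -1.01 (unadjusted p 0.0201). The heat shock list had a median of -0.24, against -0.16 over all genes. It was -0.10 with UV2 anti-PD-1 replicate 3 removed and -0.45 with parental anti-PD-1 replicate 2 removed. Hsp90ab1, a constitutive Hsp90 chaperone, measured 1976, 1485 and 1681 TPM in UV2 isotype and 1327, 1232 and 1008 in UV2 anti-PD-1. Its difference between the responses ranged from -0.72 to -0.51 as each library was left out. The unfolded protein and amino acid stress list had a median of -0.13, which turned to 0.07 with median-of-ratios scaling. Of its 24 genes, 3 were lower at an unadjusted p under 0.05 (2.30% of all genes). Asns, the asparagine synthetase, was among them, at -0.71. Hypoxia and glycolysis had a median of -0.14, which also turned to 0.07 with that scaling, and was -0.34 without UV2 isotype replicate 1.

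Medians of several tissue and complement lists moved as single libraries were left out. The keratinocyte median of 1.03 became 0.00 without UV2 anti-PD-1 replicate 3, where Krt14 of the basal epidermis was 69.5 TPM against at most 0.63 in the other 11 libraries. The adipocyte median of 0.94 became 0.17 with parental isotype replicate 3 removed and 2.10 with parental anti-PD-1 replicate 1 removed. In those 2 libraries Adipoq, the adipocyte hormone adiponectin, was 36.7 and 71.3 TPM. In UV2 it was 0.43, 3.12 and 0.9 TPM under isotype and 36.1, 9.64 and 3.23 after anti-PD-1. In UV2, 9 of 14 adipocyte genes had all 3 anti-PD-1 libraries above all 3 isotype libraries, where 5.70% of all genes did. The erythrocyte median of 2.21 over 5 genes became 1.06 without UV2 anti-PD-1 replicate 1, where the globin gene Hba-a1 was 1206 TPM against 50.4 to 261 in the other 11. The skeletal muscle median of 0.02 was the result of responses of 1.47 in UV2 and 1.46 in parental tumors, and was -1.15 without parental isotype replicate 3 and 1.29 without UV2 anti-PD-1 replicate 1. Complement genes had a median of 0.67, with 16 of 19 above 0 (4740 of all 13592 genes were), and 0.38 without parental isotype replicate 3.

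Stromal and signalling lists held single genes with low p values. In the fibroblast and matrix list, 17 of 30 genes were above 0 (4740 of all 13592 genes were). Its median was 0.18 and turned to -0.24 without UV2 isotype replicate 2. Its Tagln, an actin-binding protein of smooth muscle and myofibroblasts, measured 39.9, 38.7 and 46.6 TPM in UV2 isotype and 68.7, 150 and 115 in UV2 anti-PD-1. The parental values were 41.5, 46.8 and 47.1 TPM under isotype and 80.3, 13.3 and 22.8 after anti-PD-1, and the difference was 1.94 ± 0.71 (SE). The UV2 groups were separate, and the parental anti-PD-1 values lay on both sides of isotype. Endothelial genes had a median of 0.26, with 0 of 21 at an unadjusted p under 0.05. It was -0.02 without parental anti-PD-1 replicate 2 and 0.63 without UV2 anti-PD-1 replicate 3.

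In the prostaglandin list 13 of 18 genes were above 0 (4740 of all 13592 genes were), with a median of 0.39 (0.20 without parental anti-PD-1 replicate 2). Ptgis, the prostacyclin synthase, had a difference of 1.60 ± 0.61 (SE). Ptgs2, the inducible cyclooxygenase, stood far apart between the lines: 246, 148 and 198 TPM in parental isotype and 473, 83.0 and 337 in parental anti-PD-1, against 4.81, 9.53 and 20.5 and then 36.7, 38.3 and 6.74 TPM in UV2. Both pairs of groups overlapped, and its difference of 0.74 had an interval of -1.76 to 3.25. Spp1, the secreted protein osteopontin, also had higher TPM in parental tumors (23006 to 49587 over both groups) than in UV2 (8974 to 22936), and its difference was -0.40 with an interval of -2.26 to 1.46.

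Chemokines had a median of 0.19, which turned to -0.07 without parental isotype replicate 3, and inflammatory cytokines 0.14, which turned to -0.07 without UV2 isotype replicate 1. In the cytokine list Csf1, the growth factor of macrophages, measured 110, 101 and 113 TPM in UV2 isotype and 97.5, 58.9 and 70.3 in UV2 anti-PD-1, and 76.2, 83.0 and 63.6 and then 77.8, 88.4 and 91.7 TPM in parental tumors. Its UV2 groups were separate, its parental groups overlapped, and its difference was -0.75 ± 0.25 (SE; unadjusted p 0.00964, adjusted p 0.80 in limma). Immediate early genes had a median of 0.15, which turned to -0.03 without UV2 isotype replicate 1, and Ctgf, a secreted matrix protein, a difference of 1.08. In the vacuolar proton pump and cathepsin list (median 0.19), Atp6v0b and Atp6v0c, subunits of the same membrane ring, had differences of 0.53 and -0.98. Atp6v0c measured 73.1, 61.0 and 123 TPM in parental isotype and 210, 152 and 237 in parental anti-PD-1, which did not overlap, and its UV2 groups did.

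Cytosolic ribosomal protein genes had 64 of 79 differences above 0, with a median of 0.11, and respiratory chain genes 66 of 81, with a median of 0.18. Among all 13592 genes 4740 were above 0. The ribosomal median turned to -0.06 without UV2 isotype replicate 3, and the respiratory chain median was 0.03 without parental isotype replicate 3. The melanocyte lineage list had 7 of 20 genes past the filter, of which 6 were above 0, with a median of 0.21 that turned to -0.02 without UV2 isotype replicate 1. Its 1 negative member was Pax3. Pax3, a transcription factor of melanoblasts, measured 7.83, 4.47 and 6.57 TPM in UV2 isotype and 3.00, 1.87 and 2.03 in UV2 anti-PD-1. Its UV2 groups were separate and its difference was -1.27, with an interval of -2.77 to 0.22. Mitf had a difference of 0.26, with an interval of -0.58 to 1.09.

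**Figure D5:**
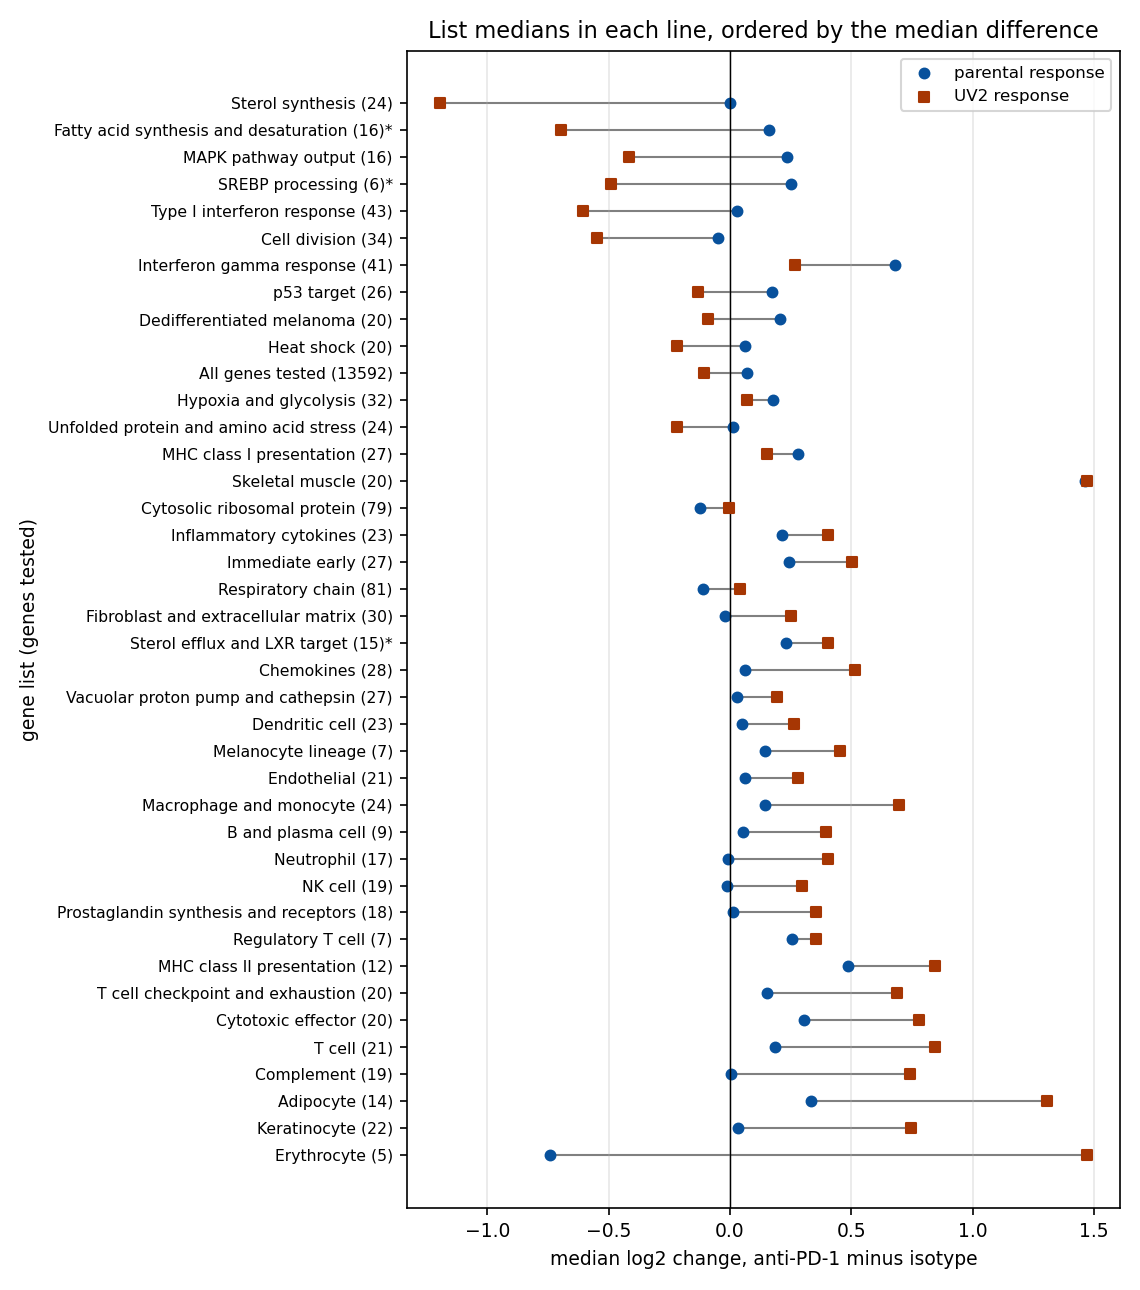
Median anti-PD-1 response (log2, anti-PD-1 minus isotype, horizontal axis) in parental tumors (circles) and UV2 tumors (squares) for each gene list and for all genes, ordered by the median difference, with the number of genes tested in parentheses and an asterisk for the lists chosen after the fit was seen. Sterol synthesis, with the most negative median difference, lies at -0.00 in parental and -1.20 in UV2 tumors, against 0.07 and -0.11 for all genes.

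The next genes were ranked among those with a mean TPM of at least 5 in at least 1 group, leaving out predicted and unnamed genes. Of the 10 with the smallest p and a lower response in UV2, 7 were sterol synthesis genes: Sqle, Hmgcs1, Idi1, Cyp51, Fdft1, Mvd and Sc4mol. The sterol list held 24 of the 13592 genes tested. That list was chosen with earlier results of these data known, so the 7 is not an independent count. The other 3 of the 10 were Ccdc3, Acyp1 and Rap1gap. Ccdc3, a secreted coiled-coil protein, measured 58.5, 38.9 and 17.8 TPM in UV2 isotype and 6.16, 3.27 and 15.1 in UV2 anti-PD-1, and 3.22, 6.98 and 3.45 and then 4.08, 9.56 and 9.79 TPM in parental tumors. The UV2 groups were separate by the gap from 15.1 to 17.8 TPM, and the difference was -2.82 ± 0.75 (SE). Acyp1, an acylphosphatase, averaged 26.1 ± 6.67 TPM (SD, n = 3) in UV2 isotype and 14.4 ± 2.92 in UV2 anti-PD-1, with a difference of -1.12. Rap1gap, which switches off the small GTPase Rap1, averaged 6.64 ± 2.67 and 2.51 ± 0.286 TPM, with a difference of -1.50.

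Under the same filter, the 10 genes with the smallest p and a higher response in UV2 were Dtnbp1, Xrcc6bp1, Cib2, Fxyd2, Hba-a2, Guca1a, Ppt2, Gpc3, Ninj1 and Plekhj1. Each had an adjusted p of 0.80 in limma. Dtnbp1, which encodes dysbindin of a complex that forms lysosome-related organelles, measured 53.8, 69.6 and 66.3 TPM in UV2 isotype and 81.7, 93.8 and 85.7 in UV2 anti-PD-1. Its parental values were 64.4, 55.8 and 71.7 TPM, then 55.8, 57.3 and 58.9, and its difference was 0.61 ± 0.19 (SE). Ninj1, a membrane protein that ruptures the plasma membrane of dying cells, measured 139, 135 and 164 TPM in UV2 isotype and 298, 351 and 269 in UV2 anti-PD-1, with a difference of 0.89. The UV2 groups were separate for both genes.

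Gpc3, a cell-surface proteoglycan, averaged 5.56 ± 2.75 TPM (SD, n = 3) in UV2 isotype and 16.3 ± 5.76 in UV2 anti-PD-1, with a difference of 2.12. Fxyd2, a subunit of the sodium pump, measured 3.34, 5.93 and 4.97 TPM and then 11.5, 23.6 and 13.5, with a difference of 2.15. Ppt2, a lysosomal thioesterase, averaged 48.8 ± 20.4 and 90.8 ± 8.12 TPM, with a difference of 0.93. Hba-a2, an alpha globin gene, was listed at 0 in 8 of the 12 libraries, and its reads can be shared with the near-identical Hba-a1, so its value is uncertain. The same holds for members of the Gbp family and for class I genes, whose copies are close in sequence. In parental tumors Xrcc6bp1 was separate in the opposite direction, at 7.05, 10.0 and 9.60 TPM under isotype and 5.30, 3.88 and 5.68 after anti-PD-1. Its UV2 values were 8.08, 7.46 and 6.93 TPM, then 9.61, 8.48 and 8.28, separate by the gap from 8.08 to 8.28 TPM. The difference was 0.94, from a UV2 response of 0.21 and a parental response of -0.73.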

How the data were processed

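Bulk RNA of mouse melanoma grafts was measured in 15 libraries of 5 groups, of which 12 enter the difference. The authors deposited TPM values for 23420 gene symbols. Bowtie2 and RSEM, with the builds mm10 and GRCm38, are named in the submitters' processing notes without versions. Each deposited TPM column sums to 1000000, so counts, depth and counting intervals are unknown, and a 0 can be a failed estimate.

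Values were analysed as log2(TPM + 1), a scale that understates changes of low genes, for 13592 genes that reached 1 TPM in 3 or more libraries. limma 3.58.1 in R 4.3.3 fitted 5 group means over all 15 libraries (10 residual degrees of freedom, eBayes with trend and robust), with two-sided tests and Benjamini-Hochberg adjustment over all genes, called under 0.05. The script was tested on simulated data.

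Named genes were the 10 lowest p values in each direction among genes with a mean TPM of at least 5 in at least 1 group (leaving out predicted and unnamed genes), a fixed set of genes, the sterol list, and for each list the 2 genes with the smallest p. Cell type markers and members named to show 1 library are outside that rule. The comparison and its 36 gene lists were chosen with earlier results of these data known. A further 3 lists (fatty acid, LXR, SREBP processing) and 1 alternative (gene-by-gene library weights) were chosen after seeing the fit. Symbols matched GENCODE M21 gene names for 93.9% of genes tested. Alternatives covered the pseudocount, filter, scaling, libraries fitted, weights, a muscle covariate, a replicate block and leaving out each library. Some genes are not reported here, although the list counts and medians include them.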

Additional observations from a re-analysis of the deposited data

How the results depend on the processing

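The difference had 0 called genes in limma under every alternative except library weights, where it gave 1303 (320 higher, 983 lower) from weights whose estimation did not converge. One triple therapy library, outside the contrast, took a weight of 73.8 there, and gene-by-gene weights gave 0. The UV2 count of 2 was 5 with the 12 libraries alone, 116 with gene-by-gene weights, 2911 with library weights, 1 with median-of-ratios scaling, 0 with quantile normalization and 0 with a muscle covariate, and ranged from 0 to 4 as each library was left out. The parental count of 0 was 1 with gene-by-gene weights (Atp6v0c, of the vacuolar proton pump) and 412 with library weights. Of 136 named genes, 118 kept the sign of the difference under all 22 alternatives. Signs turned for Acta1 (-0.19 gene-by-gene weights, -0.082 muscle covariate, -0.0078 quantile), B2m (-0.10 quantile), Foxp3 (0.16 median-of-ratios, 0.11 quantile), H2-L (0.011 gene-by-gene, 0.34 library weights), Irf1 (0.070 median-of-ratios), Pmvk (0.013 gene-by-gene, 0.030 library weights, 0.056 median-of-ratios, 0.0086 quantile), Prf1 (-0.029 pseudocount 0.1) and Tap1 (0.076 median-of-ratios). Ranges over leaving out each library that crossed 0 were -1.73 to 2.58 for Acta1, -0.18 to 0.32 for B2m, -0.83 to 0.10 for Cd274, -0.40 to 0.49 for Cd4, -0.0013 to 1.30 for Cd8a, -0.85 to 0.14 for Ciita, -1.05 to 0.089 for Cxcl10, -0.82 to 0.065 for Cxcl9, -0.27 to 0.43 for Foxp3, -0.99 to 0.072 for Gbp2, -0.40 to 0.71 for Gzmb, -0.30 to 1.67 for Igj, -0.42 to 0.092 for Irf1, -0.36 to 0.17 for Pmvk, -0.53 to 0.50 for Prf1, -0.0061 to 1.52 for Ptgs2 and -0.53 to 0.16 for Tap1. The cause of these moves was not tested. Whether the replicate numbers pair the samples was not settled. Deviations from the group means had correlations from -0.542 to 0.47 in 18 same-numbered pairs, 6 of them over 0.1. In 36 pairs of unlike number they ran from -0.55 to 0.619, 17 of them over 0.1. Deviations within a group of 3 libraries sum to 0, so these correlations cannot decide it. The replicate block gave 0 called genes for the difference and 3 for UV2. Without stated depth, no counting error can be given.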
